A study of Mus musculus with 9 samples.

Results

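Calcium, phosphate and vitamin D handling in the kidney was followed through 9 genes: the calcium entry channel gene Trpv5, the calcium-binding protein genes Calb1 and S100g, the vitamin D enzyme and receptor genes Cyp27b1, Cyp24a1 and Vdr, the klotho gene Kl, and the phosphate cotransporter genes Slc34a1 and Slc34a3. They are a named list of genes, and all 9 of 9 had a row with a single gene symbol, out of 22180 genes measured that way. Each had exactly 1 such row, so no choice between rows was needed. The data were 9 whole-transcript arrays of total RNA from mouse kidney, 3 per group. In the norUDCA-prefed CBDL group, mice received norUDCA, a side-chain-shortened relative of ursodeoxycholic acid, in the feed for 5 days before common bile duct ligation (CBDL), an operation that blocks bile outflow, and the label gives 3 weeks of ligation. The CBDL group had the same ligation for 3 weeks without the feeding, and the sham group had a sham operation 3 weeks before. The labels give no strain, age or sex, do not say whether feeding went on after surgery, and do not say whether the 3 samples of a group are 3 animals, so the p-values speak of the spread among these samples, which may be technical. None of the groups analysed here combined sham surgery with norUDCA. Arrays are called by group and label number, such as CBDL_165.

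As background, the kidney sets calcium and phosphate balance in separate stretches of the nephron. Phosphate is taken up from the filtrate in the proximal tubule by sodium-dependent cotransporters of the SLC34 family, while the distal convoluted and connecting tubules reabsorb calcium through an apical channel, cytosolic calcium-binding proteins and basolateral exporters. The proximal tubule also makes the active hormone calcitriol through CYP27B1, and CYP24A1 breaks it down. Calcitriol acts through the vitamin D receptor on many of these genes, and the bone hormone FGF23 acts on the kidney through klotho as its coreceptor.

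Upstream DNA of 3 members is shown, for a calcium, a phosphate and a vitamin D gene: S100g and Slc34a1 were lower in CBDL than in sham kidneys, and Cyp27b1 was highest in norUDCA-prefed CBDL kidneys. RefSeq's promoter table (GRCm38.p6) matched 7 of the 9 members by symbol, and Calb1 and Cyp24a1 had no entry. Only bases before the annotated span of the gene are shown, 5′ to 3′ on the gene's strand. Capitals mark AGGTCA, a half-site that many nuclear receptors read, or GTTAAT, a half-site of the tubule factor HNF1, on either strand (TGACCT and ATTAAC when read on the other). The S100g stretch is chrX:162964600-162964849 (minus strand, within the span of Ctps2), that of Slc34a1 is chr13:55399398-55399621 (plus strand) and that of Cyp27b1 is chr10:127047996-127048245 (plus strand).
S100g: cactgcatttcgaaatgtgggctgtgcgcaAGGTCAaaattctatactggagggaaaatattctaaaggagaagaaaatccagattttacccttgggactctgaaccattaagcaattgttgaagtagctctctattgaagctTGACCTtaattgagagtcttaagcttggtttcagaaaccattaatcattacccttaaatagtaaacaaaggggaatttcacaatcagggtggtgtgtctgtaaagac
Slc34a1: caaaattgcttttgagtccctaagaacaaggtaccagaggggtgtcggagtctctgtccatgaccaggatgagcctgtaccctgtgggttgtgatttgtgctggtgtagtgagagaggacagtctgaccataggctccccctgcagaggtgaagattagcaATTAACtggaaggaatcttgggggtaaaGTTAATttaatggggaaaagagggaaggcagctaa
Cyp27b1: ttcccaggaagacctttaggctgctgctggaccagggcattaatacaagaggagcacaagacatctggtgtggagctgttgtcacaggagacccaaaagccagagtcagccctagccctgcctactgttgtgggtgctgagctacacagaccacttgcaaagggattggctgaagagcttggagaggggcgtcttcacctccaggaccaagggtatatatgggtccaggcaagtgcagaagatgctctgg
In the 250 bases before the start site, AGGTCA was found 2 times for S100g (at -220 and -107 from the start) and 2 times for Slc34a3 (at -33 and -6), and GTTAAT 2 times for Slc34a1 (at -89 and -61). Of all 32851 promoters in the table, 14.0% held AGGTCA and 6.4% held GTTAAT in a window of the same length. A direct repeat of the first half-site spaced by any 3 bases (AGGTCA on both sides), the layout known for the vitamin D receptor, was in 2 of the 32851 and in none of the 7 members' windows. These are matches of letters and not shown sites.

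The values are log2 signals normalized by the authors with RMA, and a difference of 1 is a doubling of signal. Array medians lay between 5.7 and 5.79 and the highest signal of any row between 13.64 and 13.73. A gene is said to have risen or fallen where limma gave an adjusted p (Benjamini-Hochberg, 22180 genes) under 0.05. The arrays sham_159 and CBDL_165 stood apart on the second principal component (13% of the variance), at -34.5 and -22.9 against 3.4 to 12 for the others, so results are also given without this pair. CBDL_165 was also the lowest CBDL array for 7 of the 9 members. Defining markers of the kidney were bright on average in all groups. The 17 proximal tubule markers averaged at least 10.11 and the 13 distal convoluted and connecting tubule markers at least 9.3 on every array. Single markers were dimmer, such as the distal marker Pvalb with a mean of 5.56 in CBDL kidneys. The parathyroid hormone gene Pth averaged 3.13 in norUDCA-prefed CBDL, 3.11 in CBDL and 3.16 in sham kidneys, among the dimmest 33.3% of genes (mean signal under 5.2), where signal above background is not shown.

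Ligation went with lower signal of most of these genes. In CBDL against sham kidneys 6 of the 9 members fell (S100g, Slc34a3, Kl, Slc34a1, Calb1 and Vdr), 2 rose (Trpv5 and Cyp24a1) and Cyp27b1 did not pass. Over all 22180 genes tested, 21.8% were called in this comparison, 10.3% higher and 11.5% lower. The arrays of the groups did not overlap for 8 of the 9 members (2 higher and 6 lower), against 35.6% of all genes (15.6% higher and 20% lower). The median difference of the members was -0.84 and that of all genes -0.06. Leaving out any 1 of the 9 arrays changed none of these 9 calls.

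**Figure D1:**
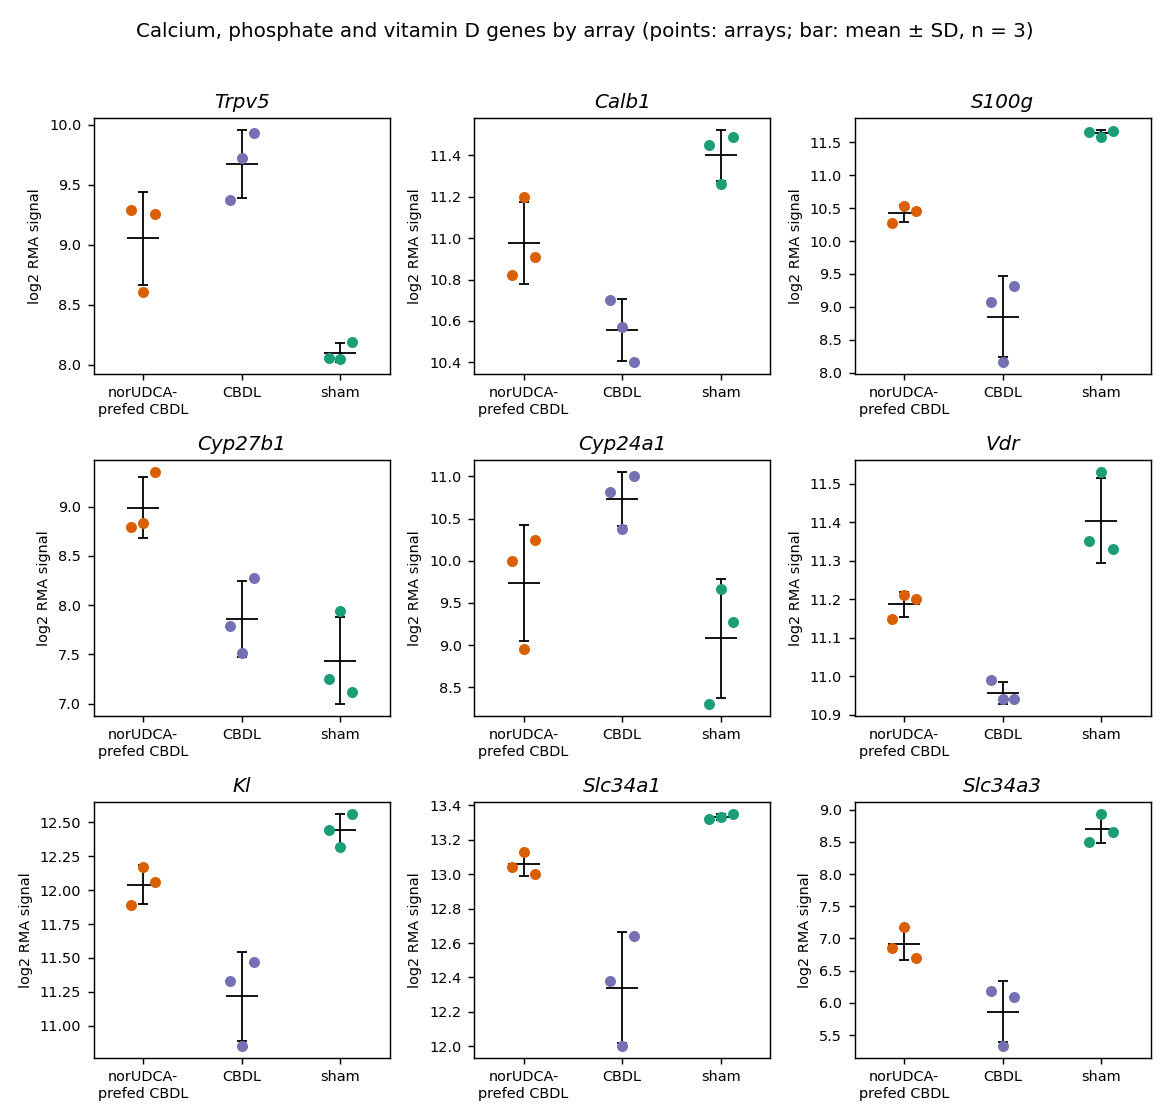
Log2 RMA signal (vertical axes, scaled per gene) of the 9 genes on each array, in norUDCA-prefed CBDL, CBDL and sham kidneys. Points are arrays and black bars are means with SD (n = 3). In 6 panels the CBDL arrays are the lowest, in the Trpv5 and Cyp24a1 panels they are the highest, and in the Cyp27b1 panel the norUDCA-prefed CBDL arrays are the highest.

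In the distal calcium pathway the channel and the binding proteins moved in opposite directions. Trpv5, the apical channel through which calcium enters distal tubule cells, had signals of 9.29, 8.61 and 9.26 in norUDCA-prefed CBDL, 9.37, 9.72 and 9.93 in CBDL, and 8.06, 8.05 and 8.19 in sham kidneys. The 3 groups did not overlap, with sham lowest and CBDL highest. Trpv5 rose by 1.57 in CBDL against sham (SE 0.20, 2.98-fold, adjusted p = 0.000403). Between norUDCA-prefed CBDL and CBDL the difference of -0.62 (SE 0.20, 95% interval -1.06 to -0.19) did not pass (adjusted p = 0.0971), and norUDCA-prefed CBDL kidneys were 0.95 higher than sham (SE 0.20, adjusted p = 0.0318).

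S100g, which encodes the smaller of the calbindins that carry calcium through the cell, changed the other way and by more. Its signals were 10.28, 10.54 and 10.45 in norUDCA-prefed CBDL, 9.08, 8.16 and 9.32 in CBDL, and 11.66, 11.58 and 11.67 in sham kidneys. All 3 groups stood apart, and the CBDL arrays were spread more widely (SD 0.61) than the sham arrays (SD 0.05). S100g fell by 2.78 in CBDL against sham (SE 0.25, 6.89-fold lower, adjusted p = 7.07e-05), and without sham_159 and CBDL_165 the difference was -2.47 (SE 0.13). In norUDCA-prefed CBDL it was 1.57 higher than in CBDL (SE 0.25, 2.97-fold, adjusted p = 0.00978) and still 2.32-fold lower than in sham (difference -1.21, SE 0.25, adjusted p = 0.0298).

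Calb1, the larger calbindin, had signals of 10.82, 11.20 and 10.91 in norUDCA-prefed CBDL, 10.70, 10.57 and 10.40 in CBDL, and 11.45, 11.26 and 11.49 in sham kidneys. The groups were in the same order as for S100g and did not overlap. Calb1 fell in CBDL against sham by 0.84 (SE 0.13, 1.79-fold lower, adjusted p = 0.00129). The other differences of 0.42 from CBDL (95% interval 0.13 to 0.71, adjusted p = 0.0942) and -0.42 from sham (95% interval -0.71 to -0.13, adjusted p = 0.134) did not pass in norUDCA-prefed CBDL kidneys.

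The 13 distal convoluted and connecting tubule markers do not include Trpv5, Calb1 or S100g. In CBDL against sham, 0 of the 13 rose and 4 fell by limma, with a median of -0.30. The 4 were Slc12a3, Pvalb, Klhl3 and Wnk4, the last also on the calcium list. At an unadjusted p under 0.05, 0 were higher and 8 lower. The arrays did not overlap for 8 of the 13, all lower, against 15.6% of all genes higher and 20% lower. The array means of the 13 markers lay between 9.94 and 10.08 in norUDCA-prefed CBDL, 9.3 and 9.7 in CBDL, and 9.94 and 10.07 in sham kidneys. The part of these cells in the changes of Trpv5, Calb1 and S100g was not tested, and in a whole-kidney sample fewer cells of a type and less RNA per cell cannot be told apart. Without sham_158, sham_159, sham_160 or norUDCA_CBDL_175, 2 of the 13 fell. Of all genes 11.5% fell with all arrays. In norUDCA-prefed CBDL against CBDL, 3 of the 13 rose and 0 fell by limma (median 0.49), against 3.61% and 3.2% of all genes. At an unadjusted p under 0.05, 8 were higher and 0 lower there. The count of 3 was 1 to 3 with single arrays left out.

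Among the vitamin D genes, the enzyme that inactivates the hormone rose with ligation while the receptor fell slightly. Cyp24a1, the 24-hydroxylase that breaks calcitriol down, had signals of 10, 8.96 and 10.25 in norUDCA-prefed CBDL, 10.82, 10.38 and 11 in CBDL, and 8.30, 9.66 and 9.28 in sham kidneys. The CBDL arrays lay above all others, and the norUDCA-prefed CBDL and sham arrays overlapped. Cyp24a1 rose by 1.65 in CBDL against sham (SE 0.39, 3.14-fold, adjusted p = 0.0128), and with variances that were not moderated it did not pass (adjusted p = 0.0702). In norUDCA-prefed CBDL kidneys it differed by -1 from CBDL (SE 0.39, 95% interval -1.86 to -0.13, adjusted p = 0.186) and by 0.66 from sham (SE 0.39, 95% interval -0.21 to 1.52, adjusted p = 0.441). Its spread within groups was the widest of the 9 genes in sham kidneys (SD 0.70) and in norUDCA-prefed CBDL kidneys (SD 0.68).

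Cyp27b1, the hydroxylase that makes calcitriol, was the only member whose norUDCA-prefed CBDL mean did not lie between the other 2 means. Its signals were 8.79, 8.83 and 9.35 in norUDCA-prefed CBDL, 7.79, 7.52 and 8.28 in CBDL, and 7.25, 7.94 and 7.12 in sham kidneys. The norUDCA-prefed CBDL arrays lay above the other 6, and the CBDL and sham arrays overlapped. Cyp27b1 was 1.13 higher in norUDCA-prefed CBDL than in CBDL (SE 0.26, 2.18-fold, adjusted p = 0.0321) and 1.56 higher than in sham (SE 0.26, 2.94-fold, adjusted p = 0.0131). The difference of CBDL from sham was 0.43 (95% interval -0.15 to 1.01, adjusted p = 0.286), and it reached 0.85 (adjusted p = 0.0455) without sham_159 and CBDL_165.

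Macrophages can also express Cyp27b1, so their markers are given beside it. Of 12 macrophage and myeloid markers, 12 rose in CBDL against sham (median 2.26), and 11 fell in norUDCA-prefed CBDL against CBDL (median -1.05). Their array means lay between 8.07 and 8.11 in norUDCA-prefed CBDL, 8.72 and 9.42 in CBDL, and 6.9 and 7.31 in sham kidneys. The second count was 3 without CBDL_164, 7 without CBDL_165, and 5, 2 and 6 without norUDCA_CBDL_172, norUDCA_CBDL_175 and norUDCA_CBDL_179. Of all genes 10.3% rose in CBDL against sham and 3.2% fell in norUDCA-prefed CBDL against CBDL. The part of macrophages in the Cyp27b1 values was not tested.

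Vdr, the vitamin D receptor, had the smallest differences of the members with a call. It stood at 11.15, 11.21 and 11.20 in norUDCA-prefed CBDL, 10.99, 10.94 and 10.94 in CBDL, and 11.35, 11.53 and 11.33 in sham kidneys. The groups did not overlap, and CBDL was lowest. Vdr fell by 0.45 in CBDL against sham (SE 0.09, 1.36-fold lower, adjusted p = 0.00635). The norUDCA-prefed CBDL group differed by 0.23 from CBDL (95% interval 0.03 to 0.44, adjusted p = 0.189) and by -0.21 from sham (95% interval -0.42 to -0.01, adjusted p = 0.288).

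Kl encodes klotho, which pairs with FGF receptors to bind FGF23. Its signals were 11.89, 12.17 and 12.06 in norUDCA-prefed CBDL, 11.33, 10.85 and 11.47 in CBDL, and 12.44, 12.32 and 12.56 in sham kidneys. The 3 groups did not overlap, with CBDL lowest. Kl fell by 1.22 in CBDL against sham (SE 0.16, 2.33-fold lower, adjusted p = 0.000547) and was 0.82 higher in norUDCA-prefed CBDL than in CBDL (SE 0.16, 1.77-fold, adjusted p = 0.0177). Against sham, the norUDCA-prefed CBDL group differed by -0.40 (95% interval -0.76 to -0.04, adjusted p = 0.252).

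Both phosphate cotransporter genes among the members were lower after ligation, Slc34a3 by more than Slc34a1 on the log2 scale. Slc34a1 encodes the main sodium-phosphate cotransporter of the proximal brush border. It stood at 13.04, 13.13 and 13.00 in norUDCA-prefed CBDL, 12.38, 12 and 12.64 in CBDL, and 13.32, 13.33 and 13.35 in sham kidneys. The groups did not overlap, and the sham signals (SD 0.01) came close to the brightest rows of the arrays. Slc34a1 fell by 0.99 in CBDL against sham (SE 0.15, 1.99-fold lower, adjusted p = 0.00101), and was 0.71 higher in norUDCA-prefed CBDL than in CBDL (SE 0.15, 1.64-fold, adjusted p = 0.0208). Its difference of -0.28 from sham in norUDCA-prefed CBDL kidneys did not pass (95% interval -0.60 to 0.05, adjusted p = 0.386), although the arrays did not overlap.

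Slc34a3, whose product is a second brush-border phosphate cotransporter, fell in CBDL against sham by about as much as S100g. Its signals were 6.85, 7.18 and 6.70 in norUDCA-prefed CBDL, 6.18, 5.33 and 6.09 in CBDL, and 8.50, 8.93 and 8.65 in sham kidneys. The 3 groups did not overlap, and CBDL_165 came near the limit of 5.2 of the dimmest 33.3% of genes. Slc34a3 fell by 2.82 in CBDL against sham (SE 0.23, 7.08-fold lower, adjusted p = 4.85e-05), and the difference was -2.44 (SE 0.16) without sham_159 and CBDL_165. In norUDCA-prefed CBDL it was 1.05 higher than in CBDL (SE 0.23, 2.06-fold, adjusted p = 0.0253) and 3.43-fold lower than in sham (difference -1.78, SE 0.23, adjusted p = 0.00471).

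Proximal tubule markers changed in the same direction as Slc34a1, Slc34a3 and Kl in CBDL against sham and in norUDCA-prefed CBDL against CBDL. Of 17 such markers, 16 fell in CBDL against sham (median -1.20) and 12 rose in norUDCA-prefed CBDL against CBDL (median 1.05). Of all genes 11.5% fell in the first comparison and 3.61% rose in the second. The lowest marker difference in CBDL against sham was -2.55, and that of Slc34a3 was -2.82. In norUDCA-prefed CBDL against sham, limma called 0 of the 17 (median -0.21, lowest -0.79), and 0 to 2 fell with single arrays left out. At an unadjusted p under 0.05, 3 were lower there. Of the 17 differences, 15 were below 0 and 2 above. The arrays did not overlap for 7 of the 17, all lower, against 13.5% of all genes lower. Slc34a3 differed by -1.78 in that comparison, Slc34a1 by -0.28 and Kl by -0.40. The array means of the 17 markers lay between 11.66 and 11.73 in norUDCA-prefed CBDL, 10.11 and 11.13 in CBDL, and 11.95 and 12.01 in sham kidneys. The part of the proximal tubule as a whole in the changes of Slc34a1, Slc34a3 and Kl was not tested. Distal convoluted and connecting tubule markers are given above, and the part of those cells in the changes of Kl was not tested either. The count of 12 was 1, 4, 2 and 3 without CBDL_164, norUDCA_CBDL_172, norUDCA_CBDL_175 and norUDCA_CBDL_179.

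In norUDCA-prefed CBDL against CBDL kidneys, 5 of the 9 members rose (S100g, Kl, Slc34a1, Slc34a3 and Cyp27b1) and 0 fell by limma, where 6.8% of all genes were called, 3.61% higher and 3.2% lower. At an unadjusted p under 0.05, 7 members were higher and 2 (Trpv5 and Cyp24a1) lower. The arrays of the pair of groups did not overlap for 9 of the 9 members (7 higher and 2 lower), against 24.2% of all genes (11.6% higher and 12.6% lower). The median difference of the members was 0.71, against 0 for all genes. This comparison shares the CBDL arrays with the one above, so the opposite signs of the members are not independent of it.

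The calls in this comparison changed when single arrays were left out. Without norUDCA_CBDL_175 none of the 5 passed by limma (adjusted p = 0.05 after rounding for S100g, 0.0791 for Kl, 0.0875 for Slc34a1, 0.107 for Slc34a3 and 0.0865 for Cyp27b1), and over all genes 278 were called in place of 1509. Without CBDL_164, S100g alone was called (Kl 0.054, Slc34a1 0.0676, Slc34a3 0.051, Cyp27b1 0.106), and the same held without norUDCA_CBDL_179 (0.0614, 0.0596, 0.0539 and 0.112 in that order). Without norUDCA_CBDL_172, Slc34a1 (0.0681), Slc34a3 (0.0736) and Cyp27b1 (0.0679) did not pass, and without CBDL_165 Cyp27b1 did not (0.112). The difference of each of the 5 kept its sign in all of these fits. Without sham_159 and CBDL_165 together, 4 members rose.

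**Figure D2:**
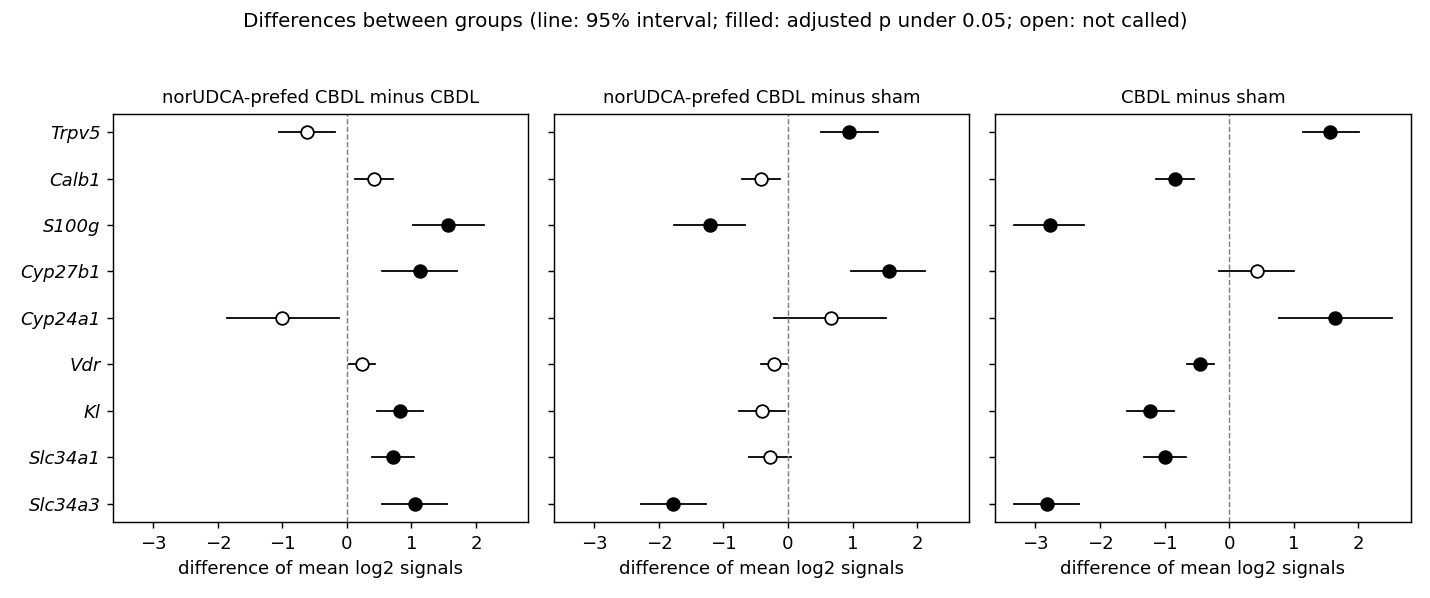
Differences of mean log2 signals (horizontal axes) of the 9 genes for norUDCA-prefed CBDL minus CBDL, norUDCA-prefed CBDL minus sham and CBDL minus sham. Lines are 95% intervals, filled points have an adjusted p under 0.05 and open points do not. The CBDL minus sham panel has 8 filled points, and Cyp27b1 is filled in the other panels only.

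In norUDCA-prefed CBDL against sham kidneys, 2 members rose (Cyp27b1 and Trpv5), 2 fell (Slc34a3 and S100g) and 5 did not pass. Of all genes 3.18% were called, 1.82% higher and 1.37% lower. The arrays did not overlap for 8 of the 9 members (2 higher and 6 lower), against 22.5% of all genes (8.96% higher and 13.5% lower), and the median difference was -0.28 against -0.05. For 8 of the 9 members the norUDCA-prefed CBDL mean lay between the CBDL and sham means, and for 7 all 3 groups stood apart. The arrays as a whole had a similar order. On the first principal component (58.3% of the variance), norUDCA-prefed CBDL arrays lay at -6.6 to 0.5. Sham arrays lay at -42.2 to -34.1 there and CBDL arrays at 26.1 to 57. How many of all genes had this order was not counted, so it is not shown to be particular to the members.

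Of these 4 calls only that of Slc34a3 held without any 1 array (adjusted p up to 0.034). Trpv5 did not pass without sham_158 (0.0872), sham_159 (0.0916), sham_160 (0.0822), norUDCA_CBDL_172 (0.133) or norUDCA_CBDL_179 (0.144), nor without sham_159 and CBDL_165 together (0.105). S100g did not pass without sham_158 (0.0799), sham_159 (0.0778), sham_160 (0.0946), norUDCA_CBDL_172 (0.123), norUDCA_CBDL_175 (0.0726) or norUDCA_CBDL_179 (0.116). Cyp27b1 did not pass without sham_160 (0.0569) or norUDCA_CBDL_179 (0.0702).

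Other genes of calcium transport gave a mixed picture. In CBDL against sham, 3 of 15 measured genes of a calcium list rose, 3 fell and 9 did not pass (median -0.12). Of all genes 10.3% rose and 11.5% fell in this comparison, which holds for the lists below as well. Trpv6, a calcium channel and the closest relative of Trpv5, is also its neighbour in the genome. Its signals were 6.70, 6.26 and 6.42 in norUDCA-prefed CBDL, 7.59, 8.50 and 8.03 in CBDL, and 5.97, 5.89 and 5.66 in sham kidneys. As for Trpv5, the groups stood apart with CBDL highest and sham lowest. Trpv6 rose by 2.20 in CBDL against sham (SE 0.21, adjusted p = 0.000113) and fell by 1.58 in norUDCA-prefed CBDL against CBDL (SE 0.21, adjusted p = 0.00815). Whether the probes of these 2 related genes also read each other was not tested.

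The parathyroid hormone receptor gene Pth1r fell by 0.88 in CBDL against sham (SE 0.16, adjusted p = 0.00273). Cldn19, a claudin of the thick ascending limb, rose by 0.81 (SE 0.18, adjusted p = 0.00815), and Atp2b1, a plasma membrane calcium pump, by 0.42 (SE 0.11, adjusted p = 0.0193). Atp2b1 did not pass without sham_158 (0.0694), sham_160 (0.0594), CBDL_164 (0.0529) or CBDL_165 (0.0628). Wnk4 and Cldn2 were the other genes called lower, and 1 gene of the list fell without sham_159 or CBDL_165. Of the 15, 0 rose and 1 (Trpv6) fell in norUDCA-prefed CBDL against CBDL by limma, against 3.61% and 3.2% of all genes. At an unadjusted p under 0.05, 6 were higher and 3 lower. The shares of all genes in this comparison hold for the lists below as well. Wnk4, a kinase of the distal tubule, differed by 0.60 (adjusted p = 0.052), the calcitonin receptor gene Calcr differed by -0.83 (adjusted p = 0.0595) and Pth1r by 0.54 (adjusted p = 0.0726), and without CBDL_170 Calcr (0.0159) and Pth1r (0.0116) passed. Against sham, 0 of 15 were called in norUDCA-prefed CBDL by limma (3 higher and 0 lower at an unadjusted p under 0.05), with Cldn19 at 0.65 (adjusted p = 0.0875), Trpv6 at 0.62 (adjusted p = 0.182) and the calcium-sensing receptor gene Casr at 0.37 (adjusted p = 0.206).

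In the phosphate list the third SLC34 gene went the other way. Slc34a2, whose product is best known from lung and intestine, had signals of 8.89, 8.19 and 8.86 in norUDCA-prefed CBDL, 9.95, 10.14 and 9.83 in CBDL, and 7.07, 7.06 and 6.61 in sham kidneys. It stood highest in CBDL and lowest in sham kidneys, with no overlap, the reverse of Slc34a1 and Slc34a3. Slc34a2 rose by 3.06 in CBDL against sham (SE 0.20, adjusted p = 2.52e-05), fell by 1.33 in norUDCA-prefed CBDL against CBDL (SE 0.20, adjusted p = 0.00883) and was 1.73 higher there than in sham (SE 0.20, adjusted p = 0.00289).

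**Figure D3:**
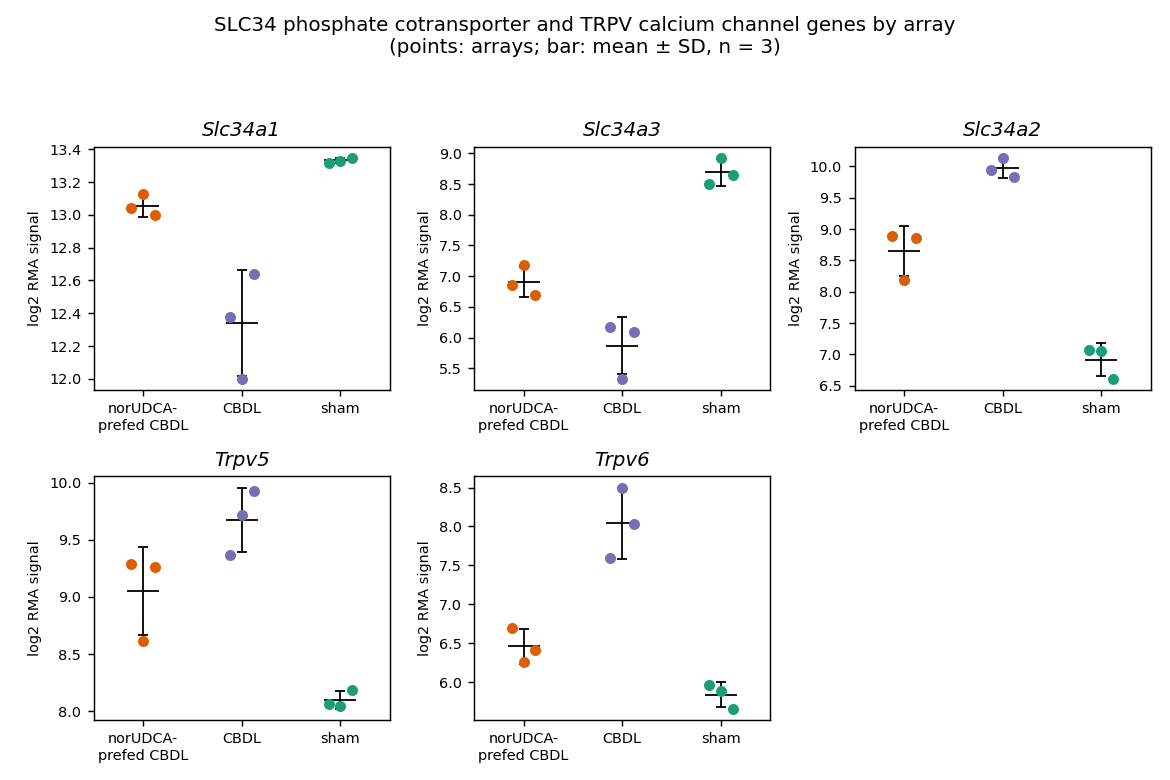
Log2 RMA signal (vertical axes, scaled per gene) of the SLC34 phosphate cotransporter genes and the calcium channel genes Trpv5 and Trpv6 in norUDCA-prefed CBDL, CBDL and sham kidneys. Points are arrays and bars are means with SD (n = 3). CBDL arrays are lowest for Slc34a1 and Slc34a3 and highest for Slc34a2, Trpv5 and Trpv6.

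Of the 16 phosphate genes measured, Slc34a2 included and the members left out, 4 rose, 6 fell and 6 did not pass in CBDL against sham (median -0.20), and 2 rose without sham_159 and CBDL_165. The 4 were Slc34a2, the sodium-phosphate cotransporter gene Slc20a1 (0.76, adjusted p = 0.00173), the stanniocalcin gene Stc2 (0.80, adjusted p = 0.00738) and the kinase gene Sgk1 (0.52, adjusted p = 0.0346). Fgfr4, an FGF receptor, fell by 1.12 (SE 0.15, adjusted p = 0.000606), the phosphate exporter gene Xpr1 by 0.84 (SE 0.11, adjusted p = 0.000502) and the apical anion transporter gene Slc17a1 by 1.16 (SE 0.17, adjusted p = 0.000843). Of the same 16, 3 rose and 1 fell in norUDCA-prefed CBDL against CBDL, with Fgfr3 at 0.72 (adjusted p = 0.0198), Slc17a1 at 0.74 (adjusted p = 0.0291) and Fgfr4 at 0.64 (adjusted p = 0.0344). Without CBDL_164, CBDL_165, norUDCA_CBDL_175 or norUDCA_CBDL_179, 0 of these rose by limma, and 1 rose without norUDCA_CBDL_172. The fall of Slc34a2 was called in each of those fits, and without sham_159 a second gene fell. Against sham, 1 of the 16 (Slc34a2) rose and 0 fell by limma (4 and 4 at an unadjusted p under 0.05), and 2 rose without sham_159. Xpr1 differed by -0.43 (adjusted p = 0.0692) and passed without CBDL_170 (0.0419), Phex, dim in all groups, by -0.35 (adjusted p = 0.0993), and Fgfr4 by -0.48 (adjusted p = 0.139).

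The vitamin D list had 17 measured genes that bring vitamin D into proximal cells or work with its enzymes and receptor. In CBDL against sham, 1 rose, 8 fell and 8 did not pass (median -0.33). The gene that rose was Cyp3a13, at a mean of 4.84 in CBDL and 4.22 in sham. Both means are under 5.2, where signal above background is not shown. By limma 0 rose without sham_159, sham_160, CBDL_165 or CBDL_170, and 6 to 7 fell with single arrays left out. Amn, which anchors the uptake receptor cubilin, fell by 1.5 (SE 0.17, adjusted p = 0.000211), and Lrp2, the gene of megalin, by 1.20 (SE 0.19, adjusted p = 0.00168). Lrp2 and Cubn are also on the proximal tubule list. Rxra, the partner of the vitamin D receptor on DNA, fell by 0.64 (SE 0.10, adjusted p = 0.00112), and Cyp27a1, a mitochondrial sterol hydroxylase able to act on vitamin D, by 0.65 (SE 0.09, adjusted p = 0.000707).

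Of the 17, 3 rose in norUDCA-prefed CBDL against CBDL and 0 fell by limma (6 and 0 at an unadjusted p under 0.05), namely Amn at 0.91 (adjusted p = 0.0145), Lrp2 at 0.98 (adjusted p = 0.0181) and the cubilin gene Cubn at 1.04 (adjusted p = 0.0214). Dhcr7, which draws on the precursor of vitamin D for cholesterol synthesis, differed by 0.94 (adjusted p = 0.0506). In the list, 0 genes rose by limma without CBDL_164 or norUDCA_CBDL_175, and 1 rose without norUDCA_CBDL_172, norUDCA_CBDL_179 or the pair sham_159 and CBDL_165. Dhcr7 passed without sham_159 (0.0495) or CBDL_170 (0.0334), and 6 genes of the list rose without sham_159. Against sham, 0 of the 17 were called in norUDCA-prefed CBDL by limma (0 higher and 6 lower at an unadjusted p under 0.05). Amn differed by -0.59 (adjusted p = 0.0998, and 0.03 without CBDL_170), Fdx1, the electron donor of the mitochondrial hydroxylases, by -0.48 (adjusted p = 0.107), Cyp27a1 by -0.31 (adjusted p = 0.11) and Rxra by -0.28 (adjusted p = 0.173).

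**Figure D4:**
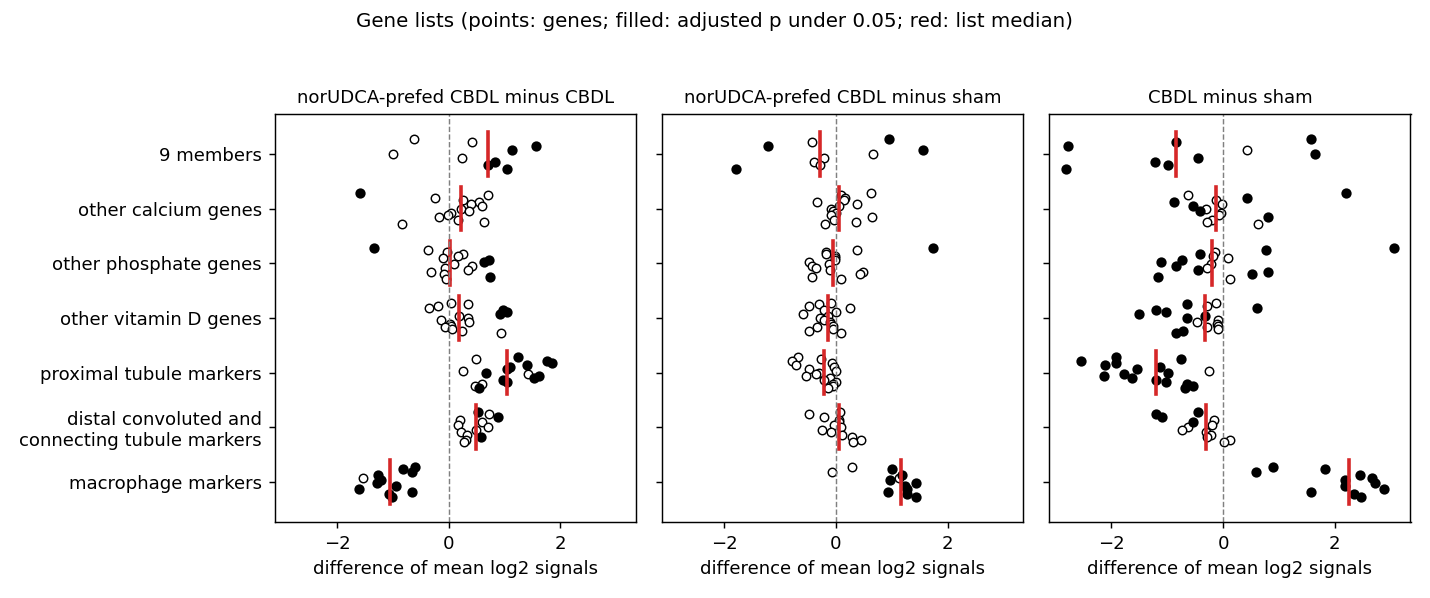
Differences of mean log2 signals (horizontal axes) for norUDCA-prefed CBDL minus CBDL, norUDCA-prefed CBDL minus sham and CBDL minus sham, for the 9 members, the other calcium, phosphate and vitamin D genes and 3 marker lists. Each point is a gene, filled where the adjusted p was under 0.05, and red lines are list medians. In CBDL minus sham the medians are -0.84 for the members, -1.20 for proximal tubule markers and 2.26 for macrophage markers.

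For each member the genes with the most similar pattern over the 9 arrays were found as those with the smallest root mean square difference, in log2 units, between the deviations of both genes from their own means. Slc34a1 was closest to Slc3a1, a proximal amino acid transporter subunit (0.032), and Kl to Ecsit (0.072), Cisd3 (0.076) and Oxct1 (0.077), an enzyme of ketone use. S100g was closest to Amacr, an enzyme of branched fatty acid and bile acid metabolism (0.148), and Slc34a3 to Angptl7 (0.191). Nepn was among the 3 closest genes of both S100g (0.176) and Slc34a3 (0.265).

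The remaining members had other neighbours. Trpv5 was closest to Map3k6 (0.158) and Plp2 (0.169), and Cyp24a1 to the immediate early genes Fos (0.358) and Egr1 (0.367). Cyp27b1 was closest to the clock output gene Dbp (0.289), then to Kynu (0.295), an enzyme of the kynurenine pathway. Calb1 was closest to Mmaa (0.073) and Vdr to Atp6v1a (0.034), a proton pump subunit gene. The distances of Cyp27b1 and Cyp24a1 to their closest genes were the longest of the 9 members. A distance also depends on how much the member itself varied, so distances of different members are not on 1 scale. The SD over the 9 arrays went from 0.2 for Vdr to 1.27 for Slc34a3.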

How the data were processed

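Total RNA was isolated with TRIzol and prepared with the WT PLUS reagent kit of Affymetrix, per the labels' protocols. Per the submitters' processing notes, the authors used Partek 6.6 and RMA, and the deposited values are log2 signals. The genome build and any batch step are not given in the sources used here. Among 41345 deposited rows, the platform annotation gives 23521 a single gene symbol, 1814 several and 16010 none. The brightest single-symbol row stood for each of 22180 genes, with no filter on low signal.

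Group means were fitted to all 9 arrays with limma 3.58.1 (R 4.3.3, moderated variances, 6 residual and 3.77 prior degrees of freedom, two-sided, Benjamini-Hochberg over 22180 genes). The median standard error of a difference was 0.14; only 3 arrays per group limit the precision.

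The members and the pathway and marker lists were chosen with earlier results of these data known. Named were the 9 members, the 4 genes of each pathway list with the lowest p per comparison, and the closest genes in pattern. Small counts were named after their values were seen. Some genes of the pathway lists are not reported here. Promoters are from RefSeq (GRCm38.p6). Alternatives were an intensity trend, array weights, unmoderated variances, only the 6 arrays compared, no dimmest 33.3% of genes, the mean of a gene's rows, median centring, quantile normalization and leaving out each array. Leaving out sham_159 and CBDL_165 together was chosen after seeing the data.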

Additional observations from a re-analysis of the deposited data

How the results depend on the processing

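No paired analysis was possible because the groups share no replicate numbers. Every difference of the 9 members kept its sign in all 3 comparisons under all alternatives run, the scalings by median centring and by quantiles included, which moved the median of all genes by at most 0.044. Of 486 recomputed member differences, 438 kept their side of the threshold, 45 lost and 3 gained it. In CBDL against sham, 1 member rose with variances not moderated, and leaving out single arrays gave 2 members higher, 6 lower and 3794 to 4604 genes called. For norUDCA-prefed CBDL against CBDL, the members higher and genes called were 0 and 25 with variances not moderated and 2 and 912 with only the 6 arrays compared, and without sham_159 and CBDL_165 749 genes were called. Single arrays left out gave 0 to 5 members higher and 278 to 2043 genes called. For norUDCA-prefed CBDL against sham, array weights gave 4 members lower (Calb1 and Kl added) and 1638 genes called, and variances not moderated gave 0 higher, 0 lower and 169 genes. Without sham_159 and CBDL_165, 1 member was higher. Single arrays left out gave 0 to 2 members higher, 1 to 2 lower and 156 to 822 genes. The cause of these shifts was not tested. Leaving out a library leaves fewer arrays in the fit. Of 647 differences of named pathway genes, 576 kept their side of the threshold, 46 lost and 25 gained it, with no change of sign for a called gene.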

Other observations

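The other nephron segments and the adipose list moved as follows, chosen for description after their values were seen. In CBDL against sham, 2 of 7 thick ascending limb markers fell (Egf by 1.85 and Cldn10 by 0.80) and 0 rose by limma, with 1 higher at an unadjusted p under 0.05 (median -0.21). Of 9 collecting duct markers 1 rose (Atp6v0d2, a proton pump subunit gene) and 4 fell, among them the water channel gene Aqp3 by 1.39 and the pendrin gene Slc26a4 by 1.26 (median -0.50). The count of 4 was 1 without sham_158 or sham_159, and 2 without sham_160, CBDL_165, norUDCA_CBDL_175 or norUDCA_CBDL_179. Of 4 podocyte markers 1 fell (Nphs1, the nephrin gene, by 0.40, list median 0.09), a call lost without sham_158, sham_159, sham_160, CBDL_164 or CBDL_165. Without CBDL_170, 1 podocyte marker rose. Of 6 adipose markers 3 rose (Adipoq, Cidec and Retn, list median 1.49). Between norUDCA-prefed CBDL and CBDL, 1 thick ascending limb marker and 3 collecting duct markers rose, with medians of 0.42 and 0.52. Both counts were 0 by limma without norUDCA_CBDL_172, norUDCA_CBDL_175 or norUDCA_CBDL_179, and the first was also 0 without sham_158, sham_160 or CBDL_164 and 2 without CBDL_170. At an unadjusted p under 0.05, 5 markers of each list were higher with all arrays. Among the 2 parathyroid markers with a row, limma called 0 in any comparison, also 0 at an unadjusted p under 0.05.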
